A study of Mus musculus with 6 samples.

Results

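Described here are 10 genes that coat, fill or empty the lipid droplet, chosen by name from the deposited count table: the perilipins Plin2, Plin3, Plin4 and Plin5, Cidea, the lipases Pnpla2 and Lipe, the lipase inhibitor G0s2, and the triglyceride synthases Dgat1 and Dgat2. All 10 had a row among the 35618 genes of the table. Transcripts were measured by RNA sequencing of heart tissue from 6- to 8-week-old mice, at day 3 after doxorubicin, an anthracycline that harms heart muscle, given into the peritoneum at 20 mg/kg. Both groups received the drug: 3 libraries came from GSDMD-FLOX/FLOX mice, in which both Gsdmd alleles are flanked by recombination sites, and 3 from GSDMD-CKO mice, in which Gsdmd, the gene of the pore-forming protein gasdermin D, was deleted in the myocardium only. The Cre line behind the deletion was not given in the sources used here, no heart without doxorubicin was analysed here, and the labels do not say whether each library is a separate animal, so p-values rest only on how far these libraries differ, which may be technical.

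A lipid droplet is a core of triglyceride under a phospholipid monolayer, and perilipins on its surface decide how much of the core lipases can reach. In heart muscle the droplet is a short-term store between fatty acid uptake and oxidation in mitochondria: DGAT enzymes add the last fatty acid to triglyceride, ATGL (the product of Pnpla2) takes the first one off, and hormone-sensitive lipase (the product of Lipe) acts next. Many of these genes are known targets of the PPAR nuclear receptors, which respond to fatty acids.

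The libraries held 17279147 to 18875902 counted reads. Gsdmd measured 6707 to 8272 CPM (counts scaled to the TMM-adjusted library total) in the floxed and 77.4 to 137 CPM in the knockout libraries, so it divided the libraries as labelled. Its floxed mean of 7613 CPM was above that of each heart muscle marker listed next, of which Tnnt2 was highest at 7015 CPM. The reason for this level, and for so large a fall in whole heart tissue, was not tested. Heart muscle markers fixed as a list (Myh6, Myl2, Tnnt2, Tnni3, Actc1, Pln, Ryr2 and Mb) were detected in all 6, with a summed level of 15315 to 23486 CPM in floxed and 10150 to 20149 CPM in knockout libraries. Knockout library 1 stood apart: mitochondrially encoded genes took 18.1% of its counts against 5.48% to 11.2% elsewhere, and the atrial light chain gene Myl7 measured 75.1 CPM there against 0.0998 to 5.18 CPM in the other 5. The edgeR fold changes of the 10 genes are therefore given with and without it. Shares, ratios, other gene lists and profiles are given with it only. White adipocyte markers, whose cells would also bring Lipe and Plin4, were low. Lep had no count in any library, Plin1 at most 5 counts and Adipoq at most 13, but Cfd had 41 counts in knockout library 1. Cidec had at most 10 counts, also in that library, and 2 of the 8 markers (Adrb3 and Nnat) passed the filter on low counts. All 8 summed to 2.39 to 2.86 CPM in floxed and 0.995 to 5.39 CPM in knockout libraries, highest in knockout library 1. Lipe and Plin4 were also highest in that library, and the part of fat cells in this was not tested. Of the 4 brown adipocyte markers, whose cells would also bring Cidea, Ucp1 did not exceed 0.544, Elovl3 0.218 and Zic1 0.699 CPM. Dio2, the 1 that passed the filter, measured 0.660 to 3.32 CPM in floxed and 2.30 to 3.79 CPM in knockout libraries, with a log2 fold change of 0.69 (edgeR adjusted p = 0.896).

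Plin4 and Plin5 are close neighbours. At the positions the deposited table gives, whose build was not given in the sources used here (none of the 10 genes had the same start or end in GENCODE M21, an annotation of GRCm38), Plin4 (ENSMUSG00000002831) lies on chromosome 17 from 56407591 to 56416803 and Plin5 (ENSMUSG00000011305) from 56418601 to 56424596, both on the minus strand, with 1797 bases and no listed gene between them. Plin3 (ENSMUSG00000024197) follows on the same strand from 56584476 to 56599873, past 7 other genes. Plin2 (ENSMUSG00000028494) lies apart on chromosome 4, 86566623 to 86588297, also on the minus strand. Chromosome 7 holds Pnpla2 (ENSMUSG00000025509, 141035111 to 141040656, plus strand), Lipe (ENSMUSG00000003123, 25078952 to 25098135, minus) and Dgat2 (ENSMUSG00000030747, 98802865 to 98831926, minus). Dgat1 (ENSMUSG00000022555) lies on chromosome 15 from 76386215 to 76396153 and G0s2 (ENSMUSG00000009633) on chromosome 1 from 192954469 to 192955525, both on the minus strand. Plin4, Plin5 and Pnpla2 had the same 3 libraries highest and Plin2 did not. Plin3 and Lipe also had these 3 highest, and their windows were searched but are not shown. Cidea and Dgat2 had them highest too, with no window searched. The 250 bases upstream of the start sites of Plin2, Plin4, Plin5 and Pnpla2 are shown. They are RefSeq windows on GRCm38.p6, at chr4:86670060-86670309, chr17:56109783-56110032 and chr17:56117549-56117798 on the minus strand and chr7:141454938-141455187 on the plus strand, written 5′ to 3′. Capitals mark AGGTCA, the core that PPAR and other nuclear receptors recognise, and the core promoter element TATAAG, on either strand.
Plin2: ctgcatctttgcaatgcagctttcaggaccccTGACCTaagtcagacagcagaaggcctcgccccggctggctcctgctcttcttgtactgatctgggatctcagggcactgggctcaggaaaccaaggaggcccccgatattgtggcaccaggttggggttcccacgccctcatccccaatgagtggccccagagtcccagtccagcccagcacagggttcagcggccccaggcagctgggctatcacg
Plin4: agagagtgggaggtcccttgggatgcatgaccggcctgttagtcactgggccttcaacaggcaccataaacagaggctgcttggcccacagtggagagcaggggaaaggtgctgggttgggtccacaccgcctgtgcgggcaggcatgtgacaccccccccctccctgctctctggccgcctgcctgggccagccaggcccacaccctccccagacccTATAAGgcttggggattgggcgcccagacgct
Plin5: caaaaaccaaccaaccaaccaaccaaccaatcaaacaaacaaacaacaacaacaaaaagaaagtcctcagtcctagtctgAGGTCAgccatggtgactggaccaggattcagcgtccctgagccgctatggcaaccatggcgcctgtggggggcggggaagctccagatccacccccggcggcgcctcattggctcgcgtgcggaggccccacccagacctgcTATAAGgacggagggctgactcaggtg
Pnpla2: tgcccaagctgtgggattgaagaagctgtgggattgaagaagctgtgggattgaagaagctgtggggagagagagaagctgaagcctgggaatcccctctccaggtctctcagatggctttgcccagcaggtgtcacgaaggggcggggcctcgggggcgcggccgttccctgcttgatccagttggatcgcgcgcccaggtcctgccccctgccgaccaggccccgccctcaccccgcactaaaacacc
The Plin2 window held AGGTCA once, as its reverse complement, with its first base 218 bases upstream of the start site, and the Plin5 window shown held it once, 170 bases upstream. Among 32851 windows of this length 14% held it. TATAAG began 32 bases upstream in Plin4 and 27 bases upstream in Plin5, and 6.65% of all windows held it. RefSeq gives Plin5 another start site, whose window (chr17:56117299-56117548) held neither motif. The windows searched for Pnpla2, Plin3, Lipe and G0s2 also held neither. The PPAR direct repeat, a pair of AGGTCA copies with 1 base between, was found in none of the 7 members with a RefSeq window that was searched, and in 0.0335% of all windows. The motifs were picked with the windows and the profiles in view.

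Of the 10 genes, 0 passed the test of knockout against floxed hearts at an adjusted p under 0.05 (edgeR's quasi-likelihood test, adjusted over the 16591 genes tested, where 2 genes or 0.0121% passed, Gsdmd and Tnnt3, a fast skeletal muscle marker, both lower). All 10 were abundant enough to be tested. At an unadjusted p under 0.05 Plin2 alone was below the threshold, lower in the knockout, against 7.02% of all genes in either direction and 2.65% lower, and DESeq2, another count test, called Plin2 alone of the 10, against 1.46% of all genes in either direction and 0.723% lower. The log2 fold change was negative for 7 and positive for 3 of the genes, with a median of -0.34, beside 46.2% negative and a median of 0.03 over all genes tested. This median was -0.86 without knockout library 1, -0.61 without floxed library 1, -0.15 without floxed library 2, -0.20 without knockout library 2 and -0.18 without knockout library 3. In whole tissue, fewer cells that carry a transcript and less transcript per cell cannot be told apart.

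**Figure D1:**
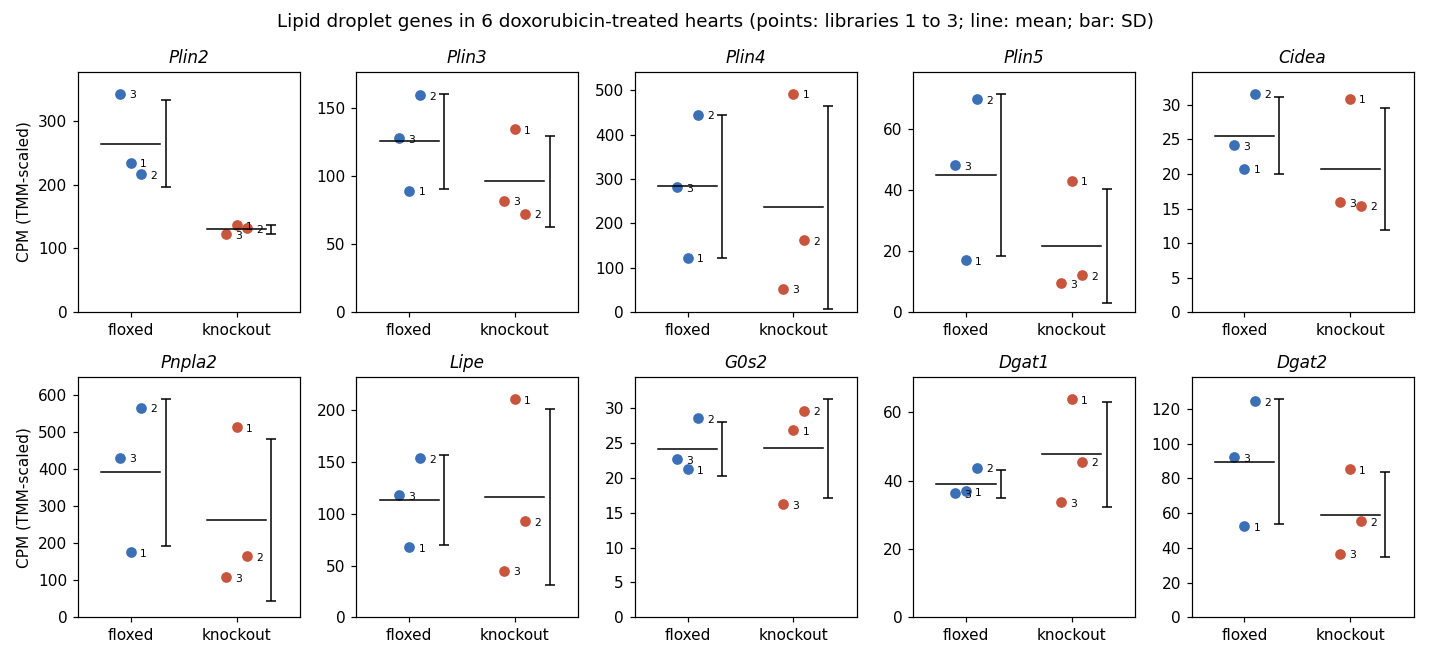
CPM of each gene (y axis, linear, from 0) in the 3 floxed (blue) and 3 knockout (red) libraries, numbered by replicate, with the mean as a line and the SD as a bar. The Plin2 points separate by genotype, whereas for Pnpla2, Plin4 and Plin5 knockout library 1 lies near floxed libraries 2 and 3, for Plin4 above both, and floxed library 1 lies well below them.

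Plin2 encodes the perilipin that coats droplets in most cell types and is stable only when bound to one. It measured 234, 216 and 343 CPM in floxed hearts (libraries 1, 2 and 3 in turn), against 137, 132 and 122 CPM in knockouts. Every knockout library lay below every floxed library, and the knockout libraries spanned only 1.12-fold from lowest to highest. Means were 265 ± 68.5 CPM for floxed and 130 ± 7.32 CPM for knockout (SD, n = 3), 2.03-fold lower in the latter. On the log2 scale the difference was -1.02 (SE 0.23, 95% interval -1.57 to -0.48). It ranked 80 among all genes by p in edgeR but did not pass (edgeR adjusted p = 0.529), and it passed in DESeq2 (adjusted p = 0.00558). Over all 17 alternatives, DESeq2 among them, the adjusted p ranged from 0.00558 to 1.00 and the log2 fold change from -1.15 to -0.81. Plin2 was the 1 gene of the 10 whose libraries did not overlap between genotypes, where 5.98% of all genes were so separated with the knockout lower, 5.82% with it higher and 11.8% in either direction. Macrophages, which also carry Plin2, had summed markers of 6992, 3536 and 6601 CPM in floxed hearts, against 2218, 6180 and 6059 CPM in knockouts, lowest in knockout library 1 and floxed library 2. T cell markers summed to 51.0 to 122 CPM in floxed libraries and 104, 505 and 557 CPM in knockout libraries 1, 2 and 3, and the part of either cell type in the Plin2 difference was not tested.

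The perilipins of muscle followed another order. Plin5, which tethers droplets to mitochondria and restrains lipolysis in oxidative tissue, measured 17, 69.7 and 48.1 CPM in floxed hearts (libraries 1, 2 and 3 in turn), against 43.0, 12.1 and 9.54 CPM in knockouts. Floxed library 1 lay near the low knockout libraries 2 and 3, and knockout library 1 lay near the high floxed libraries 2 and 3. The mean difference was of the size of that of Plin2 but with a wider error: -1.06 on the log2 scale (SE 0.70, 95% interval -2.71 to 0.58, edgeR adjusted p = 0.862). Plin4, a perilipin of adipose tissue and muscle, measured 123, 445 and 282 CPM in floxed hearts, against 492, 162 and 53.2 CPM in knockouts. It spanned 9.26-fold within the knockout alone, from the highest library of all 6 to the lowest. Its log2 fold change of -0.26 (95% interval -2.14 to 1.61, edgeR adjusted p = 0.976) was 0.22 without floxed library 2, 0.20 without knockout library 3 and -1.42 without knockout library 1. Plin3, a cytosolic perilipin that moves to nascent droplets in most tissues, varied less, at 89.1, 159 and 128 CPM in floxed hearts, against 134, 72.2 and 81.7 CPM in knockouts, with overlap and a log2 fold change of -0.38 (95% interval -1.13 to 0.36, edgeR adjusted p = 0.895). Cidea (ENSMUSG00000024526; chromosome 18, 67476674 to 67500855, plus strand, in the deposited table) helps droplets to fuse and is best known from brown fat. It measured 20.8, 31.6 and 24.2 CPM in floxed hearts, against 30.9, 15.4 and 15.9 CPM in knockouts. The 6 libraries stood in the same order for Cidea as for Plin3, and of the 45 pairs of the 10 genes this pair had the smallest difference in profile, a root mean square of 0.12 on the log2 scale. The Cidea log2 fold change was -0.30 (95% interval -1.06 to 0.45, edgeR adjusted p = 0.930).

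**Figure D2:**
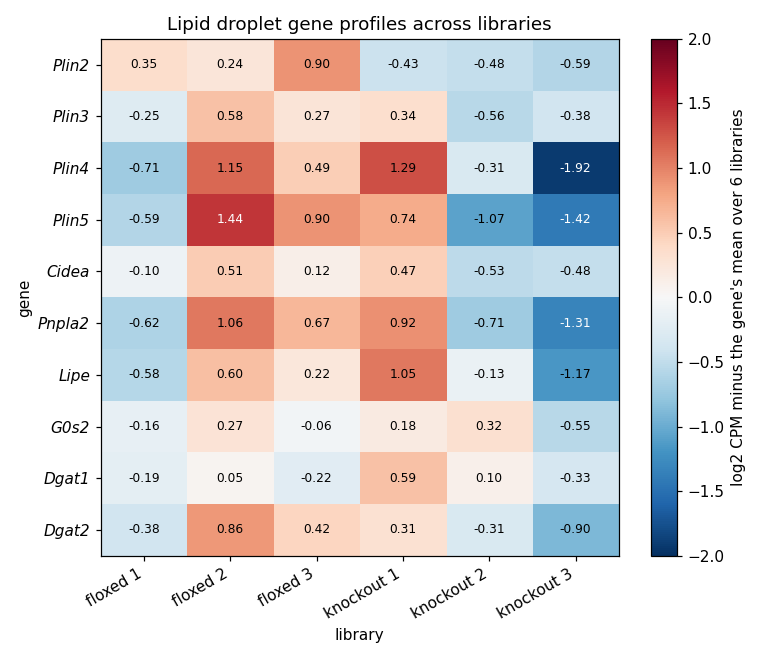
Each cell gives a gene's log2 CPM in a library minus that gene's mean over the 6 libraries (rows: genes; columns: libraries; red above and blue below the mean). The Plin2 row changes sign at the boundary of the genotypes (0.24 to 0.90 against -0.59 to -0.43), while Plin3, Plin4, Plin5, Cidea, Pnpla2, Lipe and Dgat2 are positive in floxed libraries 2 and 3 and knockout library 1 and negative in the other 3.

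Per kilobase of transcript, the perilipins made different shares of their summed transcripts. Summed over Plin2, Plin3, Plin4 and Plin5, the deposited FPKM (fragments scaled to transcript length and library total) was 121, 199 and 199 in floxed hearts (libraries 1, 2 and 3 in turn), against 157, 89.0 and 75.6 in knockouts. Plin2 gave 56.7%, 29.7% and 49.1% of this sum in floxed and 22.6%, 42.6% and 50.2% in knockout libraries. Its share was lowest in knockout library 1, where Plin4 gave 44.9%, and the genotypes overlapped (exact permutation p = 0.6, two-sided). The share of Plin3 was 20.0%, 20.3% and 17% in floxed hearts, against 20.6%, 21.7% and 31.1% in knockouts. All knockouts lay above all floxed hearts, by a narrow gap between floxed library 2 and knockout library 1 (exact permutation p = 0.1, two-sided, the smallest that 3 against 3 libraries allow). Adjusted over the 10 shares, sums and ratios compared in this way, that p was 0.333.

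The first lipase of the droplet had a profile close to that of Plin5, at a root mean square difference of 0.25 on the log2 scale. Pnpla2, the gene of ATGL, measured 177, 567 and 432 CPM in floxed hearts (libraries 1, 2 and 3 in turn), against 514, 166 and 109 CPM in knockouts. Libraries of one genotype differed by up to 4.70-fold, and the genotypes overlapped. The difference on the log2 scale was -0.58 (SE 0.65, 95% interval -2.12 to 0.97, edgeR adjusted p = 0.935). Lipe, the gene of hormone-sensitive lipase, measured 67.8, 154 and 118 CPM in floxed hearts, against 211, 92.8 and 45.0 CPM in knockouts, where knockout library 1 was the highest of the 6 and knockout library 3 the lowest. Its mean was close to equal between genotypes (log2 fold change 0.04, 95% interval -1.29 to 1.36, edgeR adjusted p = 0.996), and without knockout library 1 the log2 fold change was -0.74. G0s2, which encodes an inhibitor that binds ATGL, was steadier, at 21.2, 28.6 and 22.7 CPM in floxed hearts, against 26.8, 29.6 and 16.2 CPM in knockouts, with a log2 fold change of 0.0032 (95% interval -0.61 to 0.62, edgeR adjusted p = 0.998) whose sign turned under another scaling, at -0.0032 with RLE. Without knockout library 1 the G0s2 log2 fold change was -0.098. The whole of G0s2, 1057 bases, lies within Lamb3 on the opposite strand, which had at most 212 counts where G0s2 had 324 to 565, and whether counting used the strand was not given in the sources used here.

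The ratio of Pnpla2 to G0s2 FPKM was 2.40, 5.73 and 5.50 in floxed hearts, against 5.52, 1.62 and 1.95 in knockouts, with overlap (exact permutation p = 0.3, two-sided). The ratio of Pnpla2 to Lipe FPKM was 5.07, 7.20 and 7.14 in floxed hearts, against 4.76, 3.49 and 4.73 in knockouts. Each knockout library lay below every floxed library for this ratio, with an exact permutation p of 0.1 (two-sided, the smallest possible) and an adjusted p of 0.333 over the 10 quantities.

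The enzymes that complete triglyceride differed from each other. Dgat1, the acyltransferase of the ER that also esterifies fatty acids taken up again after lipolysis, measured 37.0, 43.7 and 36.3 CPM in floxed hearts, against 63.9, 45.5 and 33.6 CPM in knockouts. Knockout library 1 was the highest, and the genotypes overlapped (log2 fold change 0.29, 95% interval -0.30 to 0.88, edgeR adjusted p = 0.896), with a log2 fold change of 0.0014 without knockout library 1. Dgat2, the acyltransferase linked to newly made fatty acids that can sit at the droplet surface, measured 52.6, 125 and 92.1 CPM in floxed hearts, against 85.2, 55.2 and 36.6 CPM in knockouts, again with overlap (log2 fold change -0.61, 95% interval -1.55 to 0.34, edgeR adjusted p = 0.862). The ratio of Dgat2 to Dgat1 FPKM was 1.41, 2.82 and 2.51 in floxed hearts, against 1.32, 1.20 and 1.08 in knockouts. All knockouts lay below all floxed hearts, by a narrow gap between floxed library 1 and knockout library 1 (exact permutation p = 0.1, two-sided, adjusted p = 0.333).

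**Figure D3:**
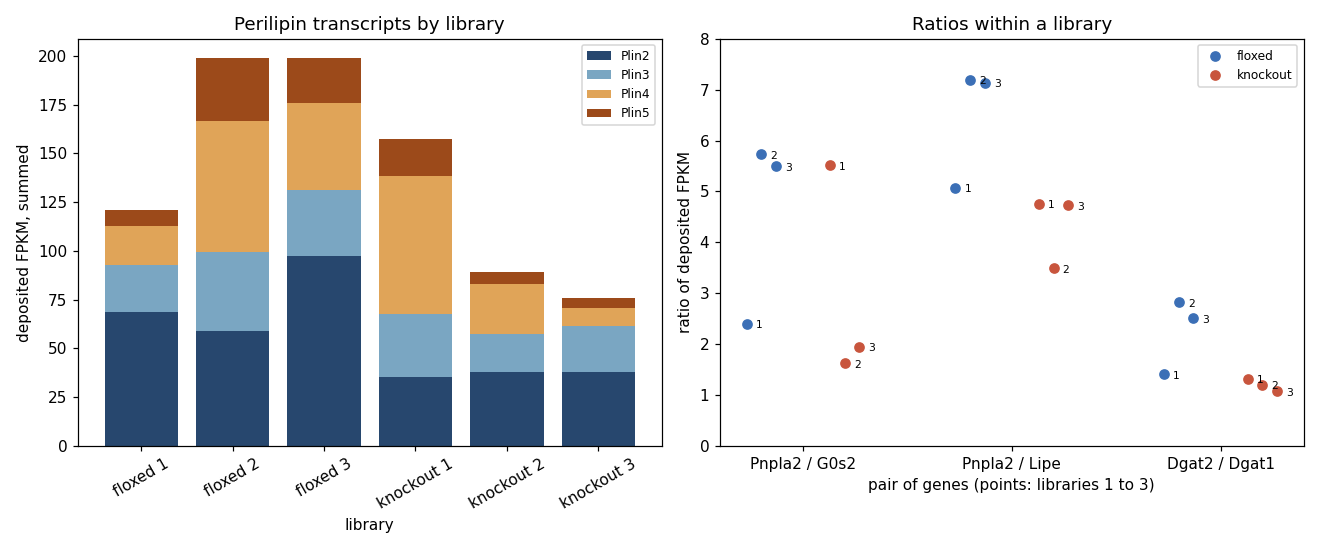
Left, deposited FPKM of the 4 perilipins stacked for each library (y axis from 0). Right, ratios of deposited FPKM within a library for 3 gene pairs, each point a library numbered by replicate (blue floxed, red knockout). The knockout points lie below all floxed points for Pnpla2 over Lipe and Dgat2 over Dgat1, and overlap them for Pnpla2 over G0s2.

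Ordered by mean FPKM over the 6 libraries, Pnpla2 was first at 106, followed by Plin2 at 56.1, Plin4 at 39.5, Plin3 at 28.9, G0s2 at 27.5, Dgat2 at 23.7, Cidea at 20.5, Lipe at 19, Plin5 at 15.5 and Dgat1 at 14. For each of the 9 neighbouring pairs in this order the mean difference within libraries was smaller than its SD over the libraries. Pnpla2 exceeded Plin2 in 5 of the 6 libraries, the exception being floxed library 1, and Plin5 exceeded Dgat1 in 2.

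The same libraries were the highest for most of the genes. For 7 of the 10 genes (Plin3, Plin4, Plin5, Cidea, Pnpla2, Lipe and Dgat2) floxed library 2, floxed library 3 and knockout library 1 were the 3 highest of the 6, a description of these libraries that held for 15.6% of all genes tested. These 3 libraries were picked with the profiles of the 10 genes in view, so the count is no test of the genes. Without knockout library 1, edgeR gave an unadjusted p under 0.05 for 6 of the 10 genes, all lower in the knockout (Plin2, Plin3, Plin5, Cidea, Pnpla2 and Dgat2), against 8.58% of all genes lower in that fit. In either direction, 3253 of the 17125 genes tested in that fit were below this threshold. The log2 fold changes of the 6 genes were then -1.08 for Plin2, -0.72 for Plin3, -2.07 for Plin5, -0.72 for Cidea, -1.53 for Pnpla2 and -0.99 for Dgat2, with edgeR adjusted p-values from 0.0734 to 0.206, and 0 of the 10 passed where 0.514% of all genes did as lower. Of these, Plin2 had the value that moved least from the fit with all 6 libraries, from -1.02 to -1.08. Leaving out any other library gave an unadjusted p under 0.05 for 1 of the 10 in edgeR. Without floxed library 2 the log2 fold changes were nearer 0, at -0.60 for Plin5, -0.21 for Pnpla2, -0.30 for Dgat2, -0.18 for Plin3 and -0.12 for Cidea. Without knockout library 3 they were -0.71, -0.21, -0.36, -0.28 and -0.15 in the same order of genes, and without knockout library 2 they were -0.78, -0.34, -0.56, -0.22 and -0.13. Without floxed library 1 they were -1.46, -0.93, -0.88, -0.58 and -0.44. Plin4 was -0.06 without knockout library 2 and -0.63 without floxed library 1. Lipe was 0.42 without knockout library 3, 0.32 without floxed library 2, 0.17 without knockout library 2 and -0.23 without floxed library 1. Plin2 stayed between -1.15 and -0.81. Marker sums also differed between libraries. The fibroblast markers summed to 9866, 4809 and 7672 CPM in floxed hearts, against 3984, 5489 and 12053 CPM in knockouts. The heart muscle markers summed to 15315, 23486 and 20592 CPM in floxed hearts, against 20105, 20149 and 10150 CPM in knockouts. The muscle sum of knockout library 2 was thus like that of knockout library 1, though its Pnpla2 was low. Its Myh6 was 5703 CPM, against 1442 to 1843 CPM in the other libraries. The fibroblast sum was lowest in knockout library 1 and floxed library 2, where Pnpla2 was high. Knockout library 2 came next at 5489 CPM, below floxed library 3 at 7672 CPM, though its Pnpla2 was low. The part of cell makeup in the spread between libraries was not tested.

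**Figure D4:**
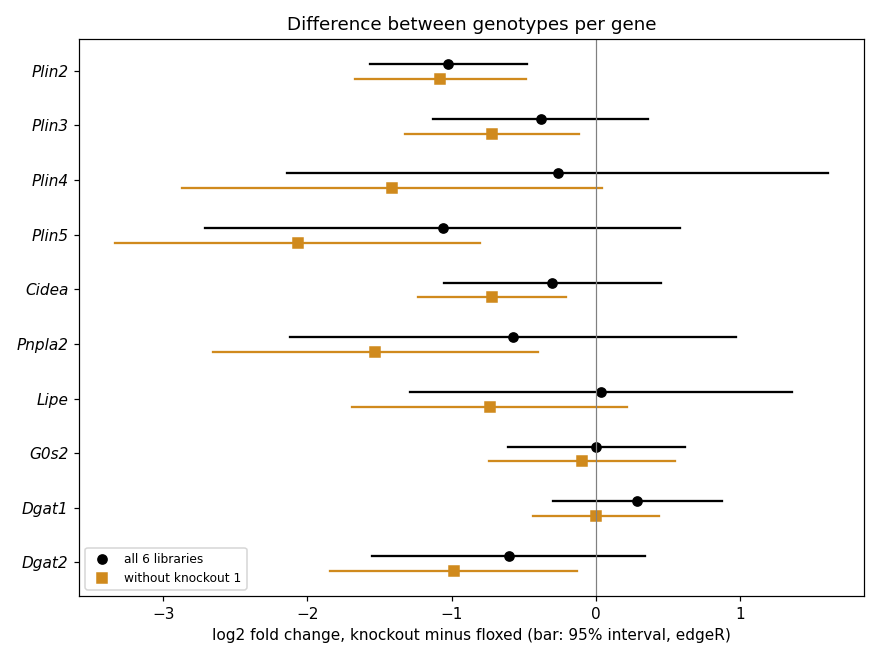
The log2 fold change of each gene, knockout minus floxed (x axis), with its 95% interval from edgeR, for all 6 libraries (black) and without knockout library 1 (orange). Plin2 is nearly the same in both (-1.02 and -1.08), whereas Plin5, Pnpla2 and Plin4 lie further below 0 without that library.

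Known PPAR targets of heart outside the 10 genes mostly had the same 3 libraries highest. Of 14 such genes, 0 passed in either direction, and 0 had an unadjusted p under 0.05 or a DESeq2 call. All 14 had a negative log2 fold change, with a median of -0.53. The list too was chosen with earlier results of these data known, so the next count is only a description. In 13 of the 14 the same 3 libraries were the highest, against 15.6% of all genes tested. Cpt1a, the carnitine palmitoyltransferase that is not the main muscle form, was the exception. It averaged 88.8 ± 4.0 CPM (floxed) and 72.2 ± 2.76 CPM (knockout) (SD, n = 3), lower without overlap (edgeR adjusted p = 0.757), as were 5.98% of all genes. Acadl, a mitochondrial acyl-CoA dehydrogenase, averaged 479 ± 183 and 280 ± 113 CPM, Hadhb, a subunit of the trifunctional protein of beta-oxidation, 309 ± 108 and 189 ± 86.9 CPM, and Slc25a20, the carnitine carrier, 63.8 ± 16.2 and 44.5 ± 12.7 CPM (SD, n = 3), all with overlap. Pdk4, which curbs glucose oxidation and was picked after its values were seen, measured 67.0, 444 and 394 CPM in floxed hearts (libraries 1, 2 and 3 in turn), against 326, 37.9 and 36.7 CPM in knockouts. The same 3 libraries were also highest for 58.3% of the fatty acid uptake and binding genes tested and 33.3% of glycerolipid synthesis genes. They were highest for 30.8% of other droplet genes and 28.6% of PPAR factors and partners. Among the heart muscle markers, Myl2, Tnnt2, Pln, Ryr2 and Mb had them highest, and Myh6, Tnni3 and Actc1 did not.

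**Figure D5:**
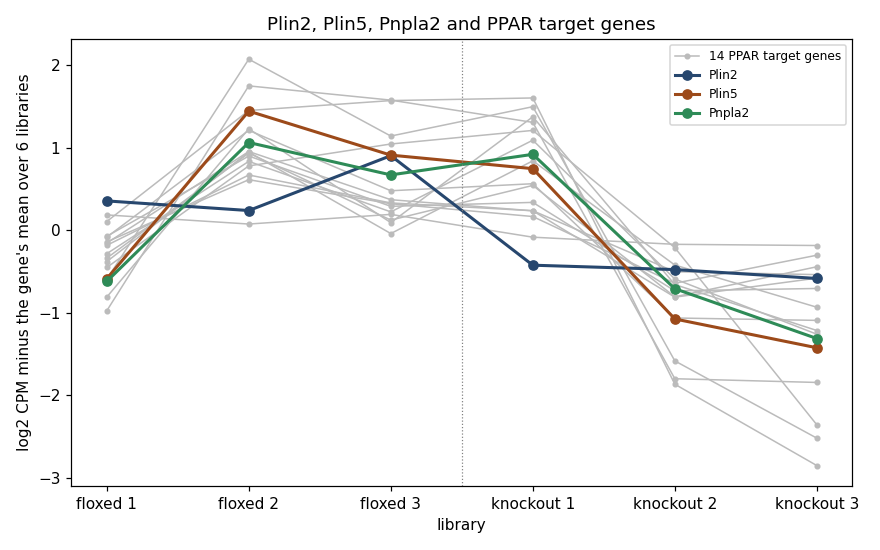
Log2 CPM minus each gene's mean over the 6 libraries (y axis) by library (x axis; the dotted line parts the genotypes), for Plin2, Plin5, Pnpla2 and 14 PPAR targets (grey). Lines join the values of a gene and show no order among libraries; Plin5 and Pnpla2 run with most grey lines, and Plin2 stays below its mean in knockout library 1, where most of them are above theirs.

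Other droplet genes gave 0 passes in either direction among 13 tested of 17 listed, with 11 negative, a median log2 fold change of -0.20, and 0 at an unadjusted p under 0.05 or called by DESeq2. The 4 that were not tested for low counts were Plin1 and Cidec, droplet proteins of white fat, Cideb, and Hsd17b13. Abhd5, which encodes the activator of ATGL, averaged 25.7 ± 3.85 CPM (floxed) and 18.7 ± 4.07 CPM (knockout) (SD, n = 3). It was lower without overlap, as were 5.98% of all genes, but did not pass (edgeR adjusted p = 0.757). Tmem159, which partners seipin where droplets form, averaged 42.7 ± 7.58 and 32.9 ± 6.34 CPM, Lipa, the acid lipase of lysosomes, 119 ± 18.8 and 96.4 ± 15.2 CPM, and Pnpla3, a relative of ATGL, 0.502 ± 0.226 and 0.894 ± 0.509 CPM. Of 18 genes for the earlier steps of glycerolipid synthesis, 15 were tested and 0 passed in either direction, with 10 negative and a median of -0.10. In edgeR 2 of them, Agpat2 and Lpin3, were lower at an unadjusted p under 0.05, against 2.65% of all genes, and DESeq2 called 0. Agpat2, which makes phosphatidic acid, averaged 42.7 ± 5.18 and 30.5 ± 4.68 CPM, and Agpat3 of the same family 143 ± 24.6 and 107 ± 25.6 CPM. The phosphatidic acid phosphatases differed in sign: Lpin3 averaged 25.4 ± 3.70 and 15.3 ± 5.99 CPM and Lpin2 44.7 ± 1.01 and 55.8 ± 9.39 CPM (SD, n = 3), with edgeR adjusted p-values of 0.682 and 0.784. Lpin1 of the same family, outside the naming rule, was lower in the knockout like Lpin3. It averaged 49.6 ± 22.7 and 33.3 ± 10.7 CPM (edgeR adjusted p = 0.862).

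The genes most alike in profile were sought among 13443 other protein-coding genes with a mean of at least 1 CPM, by the root mean square difference of centred log2 CPM over the 6 libraries. Closest to Plin2 were Zdhhc14 at 0.13, Pak6 at 0.16, Cabyr at 0.17, and Aph1c and Serpinb6a at 0.19 each. Closest to Pnpla2 were Osbp2 at 0.12, Myh14 and Mlycd at 0.13 each, Pik3ip1 at 0.14 and Ephx2 at 0.15. Of these, Mlycd encodes malonyl-CoA decarboxylase, which relieves the block on fatty acid entry into mitochondria. Closest to Dgat1 were Tubgcp3 and Ccdc77 at 0.03 each, Zfp182 and Thoc1 at 0.04 each, and Mdm4 at 0.05. With 6 libraries and this many genes, small differences are found for many profiles, and the values describe these libraries.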

How the data were processed

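RNA was sequenced from mouse heart with a stranded mRNA kit, per the labels' protocols. The submitters' processing notes list, with no roles, mm10, featureCounts 1.6.2, HISAT2 2.1.0, DESeq2 1.22.1, fastp 0.19.3, GATK 4.0.11.0, Cufflinks and StringTie 1.3.4d; how strand and shared reads were handled was not given in the sources used here. The authors deposited raw counts per gene for 35618 genes and FPKM values for 35606 genes. No column belonged to other samples.

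Counts were tested with edgeR 4.0.16 in R 4.3.3 (filterByExpr with a minimum count of 10, TMM, robust quasi-likelihood test, genotype as the only term, Benjamini-Hochberg adjustment), which kept 16591 genes with 99.8% of the counts. The common dispersion of 0.111 is a biological coefficient of variation of 33.3%. Standard errors and 95% intervals come from the F statistic. CPM uses TMM-scaled totals, and log2 CPM for profiles a prior count of 2. FPKM served for levels between genes and ratios within a library, the ratios being tested on the log2 scale. Exact permutation tests were two-sided and cannot go below 0.1. The tests were tried on simulated counts. Alternatives were RLE, other library sizes, no filter or a mean of 1 CPM, DESeq2 1.42.0, limma-voom (limma 3.58.1), edgeR without robust estimation, limma on log2(FPKM + 1) and log2(FPKM + 0.1), the replicate number as a block, and leaving out each library.

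Members, gene lists (5 pathway and 9 cell type lists) and motifs were chosen with earlier results of these data known. Named were the 10 members, Gsdmd, up to 4 genes of each pathway list by smallest p, and the 5 genes closest in profile to Plin2, Pnpla2 and Dgat1. A gene that this rule names is not reported here. Endothelial, skeletal muscle and other marker sums are given in the closing section. Promoter windows are from RefSeq (GRCm38.p6) and were matched by symbol and searched for 7 of the 10 members. Figures were drawn with matplotlib 3.10.9.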

Additional observations from a re-analysis of the deposited data

How the results depend on the processing

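The median log2 fold change of the 10 genes stayed negative under all 17 alternatives (-0.86 to -0.15); leaving out 1 library gave both ends of that range, -0.86 without knockout library 1 and -0.15 without floxed library 2. The count of the 10 genes that passed stayed at 0 in all but DESeq2, which called 1, Plin2. Over all genes, 2 passed as reported, 1 with library sizes that leave out mitochondrially encoded genes and Gsdmd, 10 without a filter, 243 in DESeq2, 1 in limma-voom, and 0 to 500 without a single library, the 500 without knockout library 1 and 0 without any other (545 to 1533 genes at an unadjusted p under 0.05). Signs near 0 turned. Lipe was -0.14 in limma-voom, -0.13, -0.15 and -0.13 in limma on FPKM with a pseudocount of 1, of 0.1 and with the filter, and -0.21 with the replicate block. G0s2 was -0.0032 with RLE, -0.017 with the other library sizes, -0.011 without a filter, -0.0032 in DESeq2, -0.035 in limma-voom, -0.019, -0.020 and -0.019 on FPKM, and -0.031 with the replicate block. Without a single library Lipe ranged from -0.74 to 0.42, G0s2 from -0.17 to 0.22 and Plin4 from -1.42 to 0.22. The causes were not tested. With the replicate number as a block, 0 genes passed instead of 2 (509 at an unadjusted p under 0.05), and 0 of the 10. Deviations from the genotype mean correlated across genes at -0.57, -0.31 and 0.04 between libraries numbered 1, 2 and 3. Deviations within 3 libraries are tied to each other, so these values cannot tell whether libraries of the same number were paired. With 3 libraries a genotype and up to 9.26-fold spread within one, the 95% intervals of 8 of the 10 genes, all but G0s2 and Dgat1, reach beyond 2-fold lower in the knockout, and those of Plin4 and Lipe also beyond 2-fold higher.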

Other observations

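Fatty acid uptake and binding genes, 12 in number and all tested, gave 0 passes in either direction in edgeR, 0 at an unadjusted p under 0.05 and 0 in DESeq2, with 7 negative and a median log2 fold change of -0.08. Fabp3, the fatty acid binding protein of heart muscle, measured 873, 2188 and 1650 CPM in floxed hearts (libraries 1, 2 and 3 in turn), against 1336, 657 and 504 CPM in knockouts. Angptl4, a secreted inhibitor of lipoprotein lipase, averaged 89.9 ± 32.6 CPM (floxed) and 54.9 ± 21.5 CPM (knockout) (SD, n = 3). Fabp5, which is not the main heart form, averaged 124 ± 26.4 and 105 ± 24.8 CPM. These 3 overlapped between genotypes.

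The PPAR factors and their partners, 7 genes, also gave 0 passes in either direction, 0 at an unadjusted p under 0.05 and 0 in DESeq2, with 4 positive and a median of 0.17. Rxra, the partner receptor of PPARs, averaged 71.9 ± 2.39 CPM (floxed) and 59.0 ± 7.23 CPM (knockout) and Ppard 29.8 ± 2.90 and 34.2 ± 2.27 CPM (SD, n = 3). Each was without overlap (edgeR adjusted p = 0.799 and 0.890), as were 11.8% of all genes in either direction. Pparg averaged 18.7 ± 4.28 and 25.7 ± 9.78 CPM, and Ppargc1b 4.10 ± 0.512 and 4.98 ± 0.447 CPM.

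Endothelial markers summed to 701 to 953 CPM in floxed and 516 to 1478 CPM in knockout libraries, and brown adipocyte markers to 1.26 to 3.69 and 2.36 to 4.54 CPM. Fast skeletal muscle markers summed to 32.3 to 35.8 and 8.74 to 10.7 CPM. Most of the floxed sum was Tnnt3, at 18.4 to 28.5 CPM in floxed and 1.83 to 2.28 CPM in knockout libraries. Actn3 was also lower without overlap, as were 5.98% of all genes, whereas Tnni2 and Mylpf overlapped between genotypes. Atrial markers summed to 1242 to 1624 and 305 to 671 CPM, a sum made up mostly of Nppa, the natriuretic peptide gene, at 1203 to 1559 CPM in floxed and 233 to 599 CPM in knockout libraries. The other 4 of the 5 tested had positive log2 fold changes: 5.79 for Myl7, 4.66 for Sln, 2.31 for Myl4 and 0.02 for Dkk3. Myl7, Sln and Myl4 were highest in knockout library 1, at 75.1, 29.4 and 88.3 CPM, and overlapped between genotypes, and 0 of the 5 passed in edgeR. At an unadjusted p under 0.05 in edgeR, these 3 were higher and Nppa lower, against 7.02% of all genes in either direction. DESeq2 called Nppa alone of the 5, lower (adjusted p = 0.000912), against 0.723% of all genes lower. Nppa was lower without overlap, as were 5.98% of all genes.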
